A study of Mus musculus with 79 samples.

Results

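The ventral hippocampus (vHipp) of unstressed mice was compared 7 days after a single injection of ketamine or saline. The members were chosen by their labels and are the 10 ketamine and 10 saline libraries of the unstressed (ctrl) vHipp, 20 of the 79 samples of the series. All were bulk RNA sequencing libraries of wild-type male CD-1 (ICR) mice that were 9 to 10 weeks old at the start. The mice were group-housed for 21 days without social defeat and then lived in groups of 4 in a social box, an enriched arena with video tracking. After 4 days in the box they received 10 mg/kg (R,S)-ketamine or saline intraperitoneally. The other arm of the series went through chronic social defeat stress (CSDS), and the medial prefrontal cortex (mPFC) was taken from the same animals. CD-1 mice are an outbred stock, so the animals of one group are not genetically identical, and social rank and social box are not in the labels used here. The tissue was a punch of 1 mm taken from frozen slices, which holds every cell type of the punched area.

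Ketamine blocks the NMDA receptor, a glutamate-gated cation channel built from GluN1 (Grin1) and GluN2 subunits, and leaves the circulation within hours. Its later actions are usually traced through AMPA receptors, release of brain-derived neurotrophic factor (BDNF) onto its receptor TrkB, the kinase mTOR, eukaryotic elongation factor 2 kinase and, in hippocampal excitatory neurons, the KCNQ potassium channels that set the threshold for firing. The ventral part of the hippocampus projects to the prefrontal cortex, amygdala and hypothalamus and is known for its part in anxiety and stress responses. The comparison asks what remains of a single dose in the RNA of this region in animals that had not been stressed.

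Between 16539848 and 41767119 reads per library were counted on genes with ketamine (median 19536615) and between 18019933 and 37421747 with saline (median 20156845). Log2 totals did not separate the groups (two-sided permutation test, p = 0.725, 100000 resamples). All 20 libraries held the markers of hippocampal neurons. Prox1, the transcription factor of dentate granule cells, lay between 99.4 and 278.7 CPM (reads on the gene relative to the TMM-scaled library total), and Zbtb20, a factor of hippocampal pyramidal and granule neurons, lay between 288.5 and 645.8 CPM. Nr2f2, a factor enriched in the ventral hippocampus, lay between 31.6 and 73.8 CPM. Ttr of the choroid plexus was at a median of 0.133 CPM with ketamine, with a highest value of 3.49 CPM, and at 0.245 CPM with saline, with a highest value of 7.61 CPM. Summed markers of neighboring regions were present in every library, at 91.7 to 153.9 CPM for thalamic, 118.5 to 166.4 CPM for striatal and 177.1 to 371.4 CPM for cortical projection neurons. A count of 0 in a library allows a level of up to 0.0753 to 0.172 CPM (3 counts, counting error only).

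No gene passed the adjusted threshold. Of 28991 genes tested, 0 (0.0%) had an adjusted p under 0.05 by edgeR's quasi-likelihood test, and the smallest adjusted p was 0.767. An unadjusted p under 0.05 was found for 836 genes, which is 2.88% of those tested, with 382 higher with ketamine (1.32%) and 454 lower (1.57%). DESeq2 gave 0 genes at an adjusted p under 0.05 and 587 at an unadjusted one, and limma-voom gave 0 and 923. Not 1 of the 15505 named genes with a mean of at least 1 CPM had groups that did not overlap (0.0%). The median log2 fold change (LFC, ketamine over saline) of all genes was -0.0012. Unadjusted p-values were spread toward large values, with 2.88% of genes in the lowest of 20 equal bins and 6.82% in the highest. The share of small p was lowest for abundant genes. Of 10156 genes at 10 CPM or more, 0.551% had an unadjusted p under 0.05, against 4.77% of the 13478 genes under 1 CPM.

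**Figure D1:**
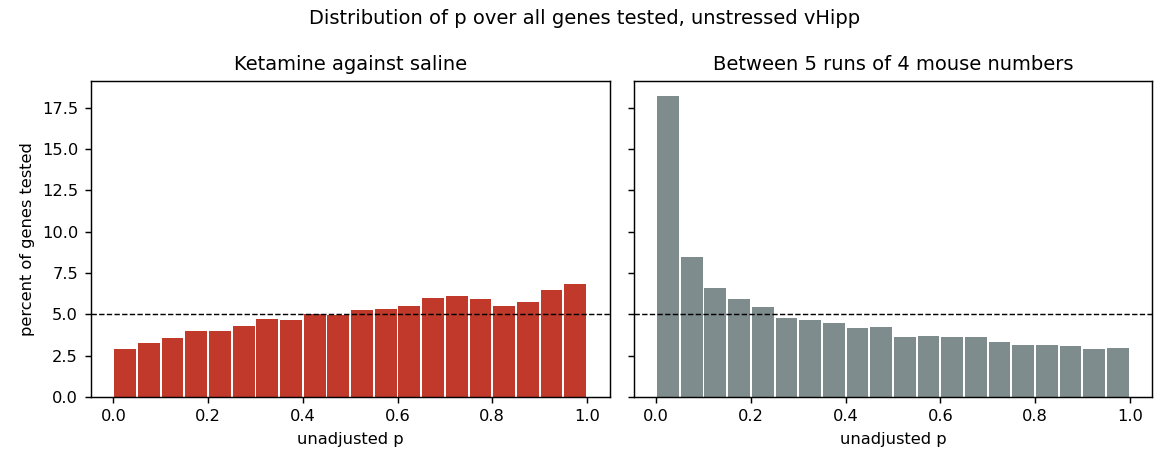
Percent of genes tested (vertical axis) in each of 20 equal bins of the unadjusted p (horizontal axis) for ketamine against saline (left, 28991 genes) and for the 5 runs of 4 mouse numbers within the same mice (right, 26806 genes), with a dashed line at the 5% of a flat distribution. The left panel has 2.88% of genes in its lowest bin and the right panel 18.2%.

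The precision of the comparison was high for genes of ordinary abundance. For the 7847 genes between 10 and 100 CPM the median standard error (SE) of the LFC was 0.073, and the 95% interval lay within ±0.5 on the log2 scale for 96.7% of them. For the 5357 genes between 1 and 10 CPM the median SE was 0.15 and the share within ±0.5 was 71.1%. Under 1 CPM the median SE was 0.56 and 2.28% of the intervals lay within ±0.5, so that differences of that size were not detectable for most of these genes. The common coefficient of biological variation, the spread between mice beyond counting error, was 0.174.

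NMDA receptor subunits, the direct targets of the drug, did not pass the test. Of the 6 subunits with at least 1 CPM, 5 had a 95% interval within ±0.5, and the bounds reached -0.26 and 0.51 (both Grin3a). Grin1, the obligatory subunit, lay between 556.9 and 712.0 CPM with ketamine (median 630.4) and between 538.7 and 672.9 CPM with saline (median 610.1). The groups of Grin1 overlapped between 556.9 and 672.9 CPM, and its LFC was 0.05 with a 95% interval of -0.08 to 0.19. Grin2a, the subunit of mature synapses, had a median of 392.3 CPM with ketamine and 384.2 CPM with saline and an LFC of 0.04 (-0.16 to 0.23). Grin2b, the subunit of extrasynaptic and juvenile receptors, had a median of 809.8 CPM with ketamine (from 638.9) and 745.3 CPM with saline (from 504.2), with an LFC of 0.07 (-0.16 to 0.30). The saline group held both the lowest and the highest Grin2b value of the 20 mice. Per kilobase of exon, Grin1 was the most abundant subunit at 63.6 CPM per kb, followed by Grin2b (31.0), Grin2a (22.2) and Grin2c (11.8). Of the 7 subunits tested, 0 had an unadjusted p under 0.05, against 2.88% of all genes, and the median LFC was 0.05.

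Other ionotropic and metabotropic glutamate receptors did not pass the test either. Gria1, the AMPA receptor subunit whose synaptic insertion underlies long-term potentiation, lay between 1158 and 1301 CPM with ketamine (median 1241) and had a median of 1260 CPM and a highest value of 1395 CPM with saline, and its LFC was -0.00 (-0.13 to 0.13). Gria2, the subunit that makes AMPA receptors impermeable to calcium, had an LFC of 0.00 (-0.21 to 0.21). In the list of 9 AMPA and kainate subunits the LFCs ran from -0.12 (Grik4) to 0.15 (Grik1), with a median of 0.03 and 0 genes at an unadjusted p under 0.05. The 7 metabotropic receptors had a median of 0.04, with 5 intervals within ±0.5 and bounds that reached -0.43 and 0.74 (both Grm8), where all 9 AMPA and kainate intervals lay within ±0.5. The 12 GABA-A receptor subunits had a median of 0.02, and both lists held 0 genes at an unadjusted p under 0.05. Gabra5, the extrasynaptic α5 subunit that is concentrated in the hippocampus, had medians of 196.9 CPM with ketamine and 214.3 CPM with saline and an LFC of -0.04 (-0.29 to 0.20).

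KCNQ channels, which carry the M-current that restrains firing, did not pass the test. Kcnq3 had medians of 272.5 CPM with ketamine and 292.5 CPM with saline and an LFC of 0.05 (-0.15 to 0.25). Kcnq5 varied more between mice, from 72.2 to 242.9 CPM with ketamine and from 83.9 to 308.6 CPM with saline, and its interval was wider (LFC -0.14, -0.57 to 0.29). None of the 7 genes of the list had an unadjusted p under 0.05. Among HCN channels, the carriers of the hyperpolarization-activated current, Hcn2 had an LFC of 0.05 (-0.10 to 0.21).

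**Figure D2:**
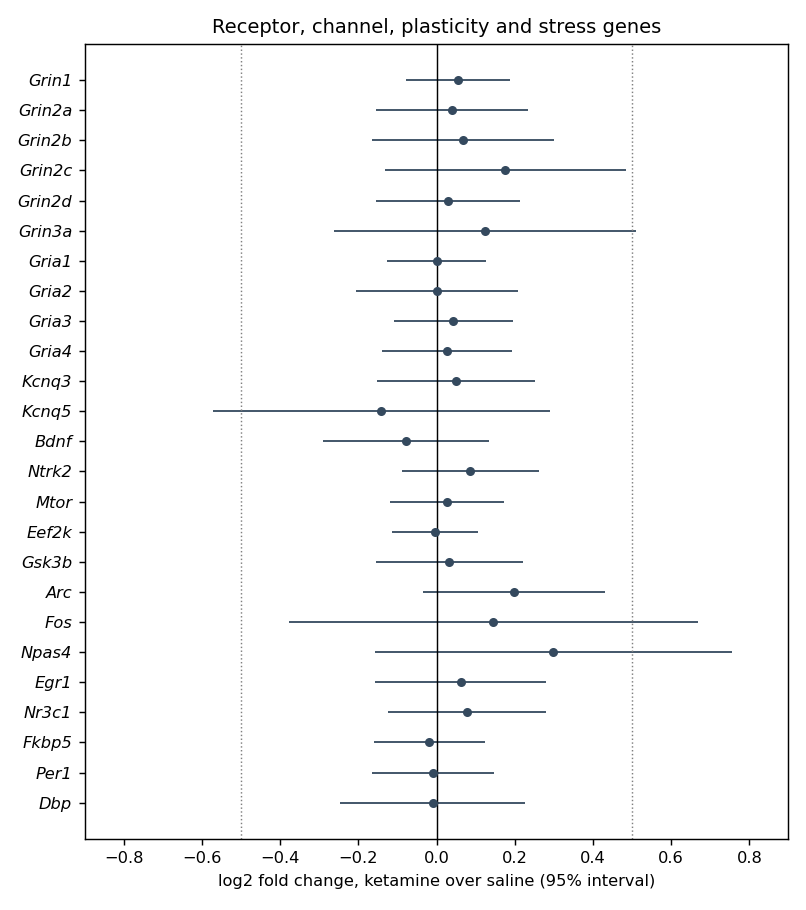
Log2 fold change of ketamine over saline (horizontal axis, points) with its 95% interval (bars) for 25 receptor, channel, plasticity, immediate early, stress and clock genes, 10 mice a group, with dotted lines at -0.5 and 0.5. Every interval holds 0, and that of Grin1 runs from -0.08 to 0.19.

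The BDNF, TrkB and mTOR genes did not pass the test either. Bdnf itself lay between 40.0 and 49.2 CPM with ketamine (median 43.5) and between 35.9 and 59.5 CPM with saline (median 46.6). All 10 ketamine values of Bdnf fell inside the range of the saline group, with an LFC of -0.08 (-0.29 to 0.13). Ntrk2, which encodes TrkB, had an LFC of 0.09 (-0.09 to 0.26), Mtor one of 0.03 (-0.12 to 0.17) and Gsk3b one of 0.03 (-0.16 to 0.22). Eef2k, the kinase that stops peptide elongation, spanned 42.1 to 52.9 CPM with ketamine and 42.1 to 53.0 CPM with saline, an LFC of -0.00 (-0.11 to 0.11). Its substrate Eef2 had an LFC of 0.09 (-0.04 to 0.22). Of the 18 genes of this list 0 had an unadjusted p under 0.05, and the median LFC was 0.03. The 20 postsynaptic and vesicle genes also held 0, with the smallest p for Shank3, a scaffold of the postsynaptic density (LFC 0.20, SE 0.11, p = 0.061). Camk2a, the synaptic kinase of excitatory neurons, had medians of 4654 CPM with ketamine and 4307 CPM with saline (LFC 0.18, -0.02 to 0.38).

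Immediate early genes report on recent neuronal firing, and 0 of 19 had an unadjusted p under 0.05. Fos lay between 0.629 and 3.38 CPM with ketamine and between 0.897 and 3.26 CPM with saline, low in every mouse. Its LFC of 0.15 carried an interval from -0.38 to 0.67. Arc, an activity-regulated protein of dendrites, had medians of 54.5 CPM with ketamine and 44.9 CPM with saline and an LFC of 0.20 (-0.03 to 0.43). The largest LFC was that of Ier2 (LFC 0.33, -0.02 to 0.67), and Npas4 had one of 0.30 (-0.16 to 0.76). Egr1 had medians of 51.6 and 51.5 CPM and an LFC of 0.06 (-0.16 to 0.28). The list held 10 genes with an LFC above 0 and 9 below it.

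Clock genes, whose transcripts follow the time of day, did not pass the test. The 19 genes had a median LFC of 0.01, with 10 above 0 and 0 at an unadjusted p under 0.05. Per1 lay between 62.6 and 86.2 CPM with ketamine and between 62.4 and 87.7 CPM with saline (LFC -0.01, -0.17 to 0.15). Dbp, a strongly cycling output of the clock, had medians of 42.1 CPM with ketamine and 41.5 CPM with saline (LFC -0.01, -0.25 to 0.23). The largest value was 0.21 for Bhlhe40 (-0.10 to 0.52).

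The cyclic AMP response element, the motif that the activity-dependent factor CREB binds, was looked for in the promoters of these genes, because the plasticity programs attributed to ketamine run through CREB. The full palindrome TGACGTCA, which reads the same on both strands, was searched in RefSeq windows of 250 bases before to 50 after each gene's start (GRCm38.p6). It was present in 1.79% of 32851 windows, and in 2 of 15 immediate early genes, 1 of 17 clock genes and 1 of 13 BDNF, TrkB and mTOR genes that matched a window. The 3 sites that lie before the start are shown with the motif in capitals, on the strand of the gene.
Btg2: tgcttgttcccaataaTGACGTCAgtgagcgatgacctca
Dusp1: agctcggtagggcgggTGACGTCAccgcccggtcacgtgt
Hlf: cgcgcggtgcgggcccTGACGTCAc
Btg2, an antiproliferative early gene, carries its site 166 bases before the start (chr1:134079298-134079337, minus strand). Dusp1, a phosphatase that switches off MAP kinases, carries it within the same window before the start (chr17:26508592-26508631, minus strand). Hlf, a clock output factor, carries it 9 bases before the start (chr11:90390918-90390942, minus strand). Their LFCs were -0.01 (Btg2, -0.25 to 0.24), 0.05 (Dusp1, -0.22 to 0.32) and 0.04 (Hlf, -0.24 to 0.32). Among 15229 tested genes with a promoter window, the 448 with the motif had a median LFC of 0.0068, and 1 of them (0.223%) had an unadjusted p under 0.05. For all 15229 these values were 0.00079 and 2.12%. A match of letters is a description of the window and not a binding site.

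Receptors for the other transmitters linked to ketamine did not pass the test. Of the 8 opioid receptors and peptides and the 21 monoamine receptors, 0 had an unadjusted p under 0.05. Oprm1, the μ-opioid receptor, was low at medians of 2.54 CPM with ketamine and 2.12 CPM with saline (LFC 0.04, -0.48 to 0.56). Htr5b, a serotonin receptor, had the largest value of these lists, with an LFC of 0.93 and an interval of -0.06 to 1.91. It had medians of 1.09 CPM with ketamine and 0.676 CPM with saline. Htr1b, the presynaptic serotonin autoreceptor, had medians of 3.79 and 2.45 CPM and an LFC of 0.52 (-0.03 to 1.07).

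Stress hormone genes were likewise within their spread. Nr3c1, the glucocorticoid receptor, had an LFC of 0.08 (-0.12 to 0.28), and Fkbp5, the co-chaperone that glucocorticoids induce, had one of -0.02 (-0.16 to 0.12). The 13 genes of this list, the 16 perineuronal net and matrix genes, the 13 neurogenesis and proliferation genes and the 16 interferon-stimulated genes held 0 at an unadjusted p under 0.05. Dcx, the marker of newborn neurons, had medians of 22.2 and 21.7 CPM (LFC 0.03, -0.16 to 0.22). Over these 16 lists together, 210 genes were tested and 0 had an unadjusted p under 0.05, and the smallest p was 0.061. The background was 2.88% of all genes, but 1.24% of those with at least 1 CPM, to which 189 of the 210 belong. This count was 0 with RLE factors, filterByExpr, no filter or DESeq2 on the same design, 1 with limma-voom and 0 to 3 without 1 library, but it was larger where the spread was estimated from the 20 libraries alone (10, against 2.981% of all genes), and where the run of 4 mouse numbers was added to these 20 as a covariate with edgeR (12) or DESeq2 (14, against 2.727% of all genes). The 12 of edgeR are to be read against 3.298% of all genes in that fit, and 0 passed the adjusted threshold (adjusted p = 1.00 for each). They were Shank1, Shank3, Homer2 and Camk2a of the synapse, Arc, Npas4 and Ier2 among early genes, the receptors Htr1b, Htr7, Drd5 and Adra1a, and Ncan of the perineuronal net. Shank3 had the smallest p of them (LFC 0.21, p = 0.0043), and Htr7 was the one with a lower value with ketamine (LFC -0.28, p = 0.030). Of the 189 with at least 1 CPM, 154 (81.5%) had an interval within ±0.5 and 186 within ±1. Of all 15513 genes at this level 88.1% had an interval within ±0.5.

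**Figure D3:**
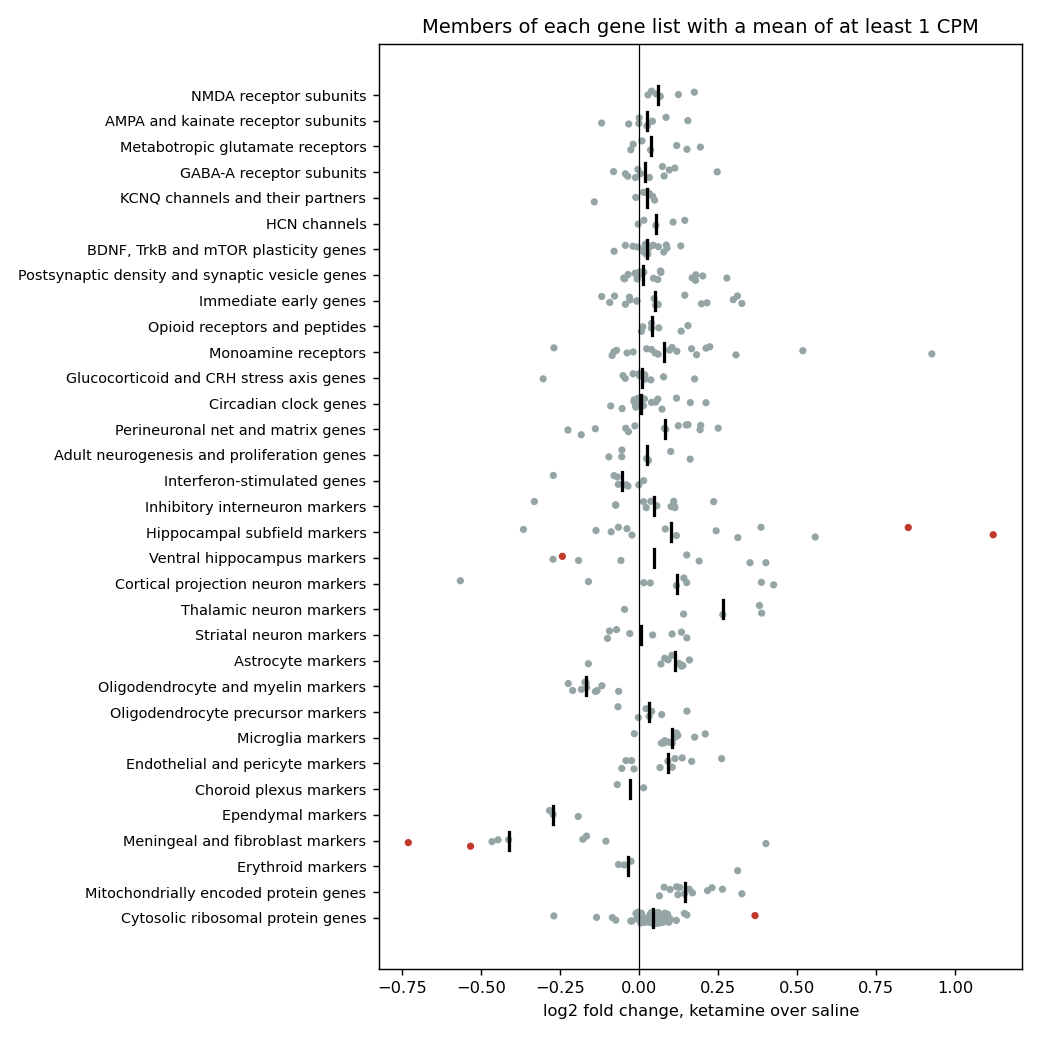
Log2 fold change of ketamine over saline (horizontal axis) for the members of 33 gene lists with a mean of at least 1 CPM, 1 point a gene, with the list's median over these members as a bar and genes of an unadjusted p under 0.05 in red. Red points stand at 1.12 (Fibcd1) and 0.85 (Spink8) among subfield markers and at -0.73 (Mgp) and -0.53 (Slc6a13) among meningeal markers.

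The genes with the smallest p are given as the extremes of a comparison without calls. The smallest p belonged to 2610316D01Rik, a processed transcript on chromosome 3 (45280437 to 45378260, GRCm38). It lay between 0.858 and 1.51 CPM with ketamine (median 1.17) and between 1.18 and 2.48 CPM with saline (median 1.81). In 5 of 10 ketamine mice it was below every saline mouse, and its LFC was -0.64 with an SE of 0.14 and p = 3.36e-05 (edgeR's quasi-likelihood test, adjusted p = 0.767). The gene kept an unadjusted p under 0.05 in each of the 20 fits without 1 library, with LFCs from -0.70 to -0.58. The other genes that shared its adjusted p were all under 0.05 CPM.

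Lower values with ketamine were led, among abundant genes, by Ptgds, the prostaglandin D synthase that is made by the leptomeninges, choroid plexus and oligodendrocytes and is a major protein of cerebrospinal fluid. It lay between 49.7 and 154.7 CPM with ketamine (median 82.4) and between 72.2 and 298.8 CPM with saline (median 184.6). In 3 saline mice Ptgds was at 94.01 CPM or less and in the other 7 at 178.2 CPM or more, and every ketamine mouse was below those 7. The LFC of Ptgds was -1.004 (SE 0.30, p = 0.0019, adjusted p = 1.00), with a range of -1.12 to -0.90 over the fits without 1 library. Gjb2, a connexin of leptomeningeal cells, lay between 3.00 and 6.85 CPM with ketamine and between 4.13 and 10.5 CPM with saline (LFC -0.66, SE 0.23, p = 0.0060).

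Other low extremes were Slc22a4, the ergothioneine transporter, with medians of 7.60 CPM with ketamine and 9.78 CPM with saline (LFC -0.33, SE 0.09, p = 0.00074). Tarbp1, an RNA methyltransferase, had medians of 12.5 and 15.3 CPM, and 6 of 10 ketamine mice were below the lowest saline mouse (LFC -0.31, SE 0.10, p = 0.0021). Ppie, a cyclophilin of the spliceosome, had an LFC of -0.18 and Ctu1, a transfer RNA thiolase, one of -0.23. The long non-coding RNA Airn, which is antisense to Igf2r, had an LFC of -0.49 at a median of 0.884 CPM with ketamine. Whether the counting used strand is not given in the sources used here, so that reads of Airn and Igf2r cannot be told apart. Gm1976 had an LFC of -0.74, but its medians were 6.00 and 6.60 CPM, and the highest saline mouse reached 21.1 CPM. Without saline mouse 28 its LFC was -0.54 (p = 0.015). Gm2027 and Gm8822, both processed pseudogenes whose reads can be shared with their parent genes, had LFCs of -0.56 and -0.43, and Gm49600 had one of -0.52.

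Higher values with ketamine were led by Rasal3, a Ras GTPase-activating protein of blood cells, with a range of 1.66 to 4.13 CPM (median 3.19) against 1.395 to 3.10 CPM with saline (median 2.21). The LFC was 0.56 (SE 0.17, p = 0.0017, adjusted p = 1.00), and 6 of 10 ketamine mice were above every saline mouse. Cyth4, another gene of blood cells and microglia, had medians of 16.1 and 11.2 CPM (LFC 0.37, SE 0.14, p = 0.012). The 11 microglia markers held 0 genes at an unadjusted p under 0.05 and had a median LFC of 0.11, and their summed level ran from 267.7 to 370.2 CPM with ketamine and from 223.1 to 342.9 CPM with saline. None of Cx3cr1, P2ry12 and Tmem119, which define microglia, was at 0 in any group. Whether microglia have a part in the Rasal3 and Cyth4 values was not tested.

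Sema5b, a transmembrane semaphorin that prunes synapses in hippocampal cultures, lay between 15.9 and 29.4 CPM with ketamine (median 19.1) and between 8.22 and 19.6 CPM with saline (median 14.3). In 5 of 10 ketamine mice it was above every saline mouse (LFC 0.45, SE 0.15, p = 0.0044). Ctnnd2, δ-catenin of the dendritic spine, was the most abundant gene among the high extremes. It lay between 200.9 and 242.2 CPM with ketamine (median 218.4) and between 166.7 and 216.2 CPM with saline (median 192.8), and 7 of 10 ketamine mice were above every saline mouse. Its LFC was small at 0.16 (SE 0.06, p = 0.0066). The protocadherin Pcdhb10 had an LFC of 0.30, the secreted factor Egfl6 one of 0.50 and Sarnp, a factor of messenger RNA export, one of 0.22. Ddx4, the germ cell helicase known as Vasa, had medians of 2.14 and 1.17 CPM (LFC 0.75, SE 0.25, p = 0.0041). The remaining names of that end were Gm40466 (0.51), Gm13306 (0.44), Gm44861 (0.37) and CAAA01147332.1 (0.27), of which Gm40466 is an unprocessed pseudogene.

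**Figure D4:**
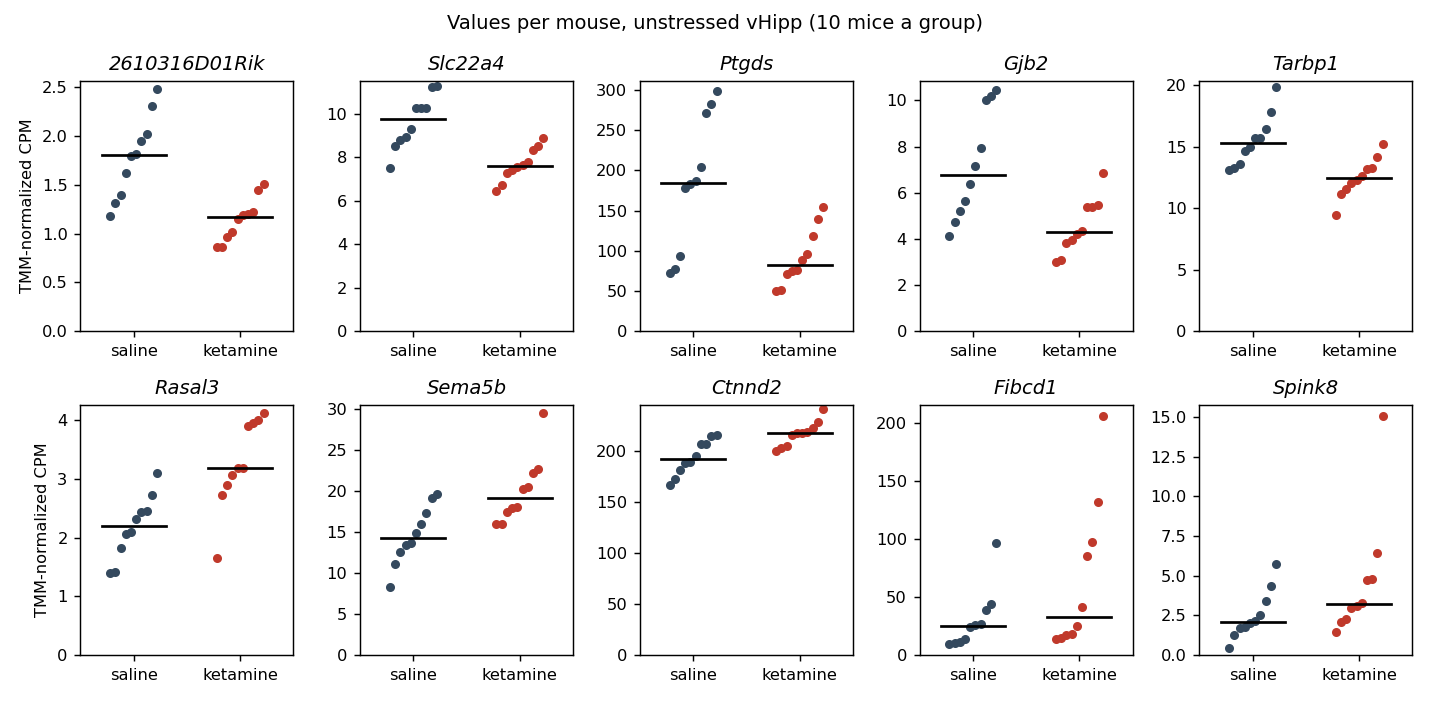
TMM-normalized CPM (vertical axis, from 0) of 10 genes in each of 10 saline and 10 ketamine mice of the unstressed vHipp, points spread sideways in order of value, with the group median as a line. The groups overlap in every panel. For 2610316D01Rik the medians are 1.81 and 1.17, and for Ptgds they are 184.6 and 82.4.

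Markers of the meninges had mostly negative LFCs beside the Ptgds and Gjb2 values, and in bulk tissue fewer cells of a type and less RNA per cell cannot be told apart. Of 9 meningeal and fibroblast markers, 8 had an LFC below 0, with a list median of -0.41 against -0.0012 for all genes. Mgp, matrix Gla protein, had an LFC of -0.73 (SE 0.33, p = 0.031) and Slc6a13, a GABA and taurine transporter of the leptomeninges, one of -0.53 (SE 0.24, p = 0.032). These were 2 of 9 members at an unadjusted p under 0.05, where the background is 1.57% for lower values. Both fell outside that threshold without saline mouse 29 (Mgp LFC -0.52, p = 0.12, and Slc6a13 LFC -0.44, p = 0.082). The count of 2 ran from 0 to 3 without 1 library. It was 4 with the 20 libraries alone, both without and with the run as a covariate, and 1 with limma-voom. It was 0 without saline mouse 24 or 29 and without ketamine mouse 23, 34 or 37. Col1a1, the collagen that defines fibroblasts, had an LFC of -0.10 (-0.43 to 0.22). The summed level of the list was 41.8 to 92.6 CPM with ketamine (median 58.6) and 42.04 to 113.4 CPM with saline (median 61.2). The exception was Dcn, which ventral CA1 neurons also express (LFC 0.40, -0.46 to 1.27). Across mice, log2 Ptgds and log2 Slc6a13 had a Pearson r of 0.733 within the saline group (permutation p = 0.017, adjusted over 4 relations 0.034; Spearman rho 0.697, p = 0.031, adjusted 0.061). The value of r was 0.330 without the 2 mice farthest from the median of Ptgds, so that the relation rested on them. Within the ketamine group r was 0.479 (permutation p = 0.16, adjusted 0.22; rho 0.394, p = 0.26, adjusted 0.31), and 0.453 without such 2 mice. Slc6a13 is 1 of the 2 meningeal markers of an unadjusted p under 0.05, and the adjustment over 4 relations does not cover that choice. The part of the meninges in the Ptgds and Gjb2 values was not tested.

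Oligodendrocyte markers had LFCs below 0 in 10 of 10 cases, from -0.22 (Mobp) to -0.06 (Opalin), with a median of -0.17 and 0 genes at an unadjusted p under 0.05. Their intervals were wide, since the summed level ran from 1235 to 3263 CPM with ketamine and from 1526 to 3979 CPM with saline. Genes of one cell type vary together between punches, so that 10 genes of one sign are not 10 independent results. Astrocyte markers had a median of 0.12 and endothelial and pericyte markers one of 0.09, each with 0 genes at an unadjusted p under 0.05. Of the 10 choroid plexus markers 2 reached 1 CPM, and the list's median was -0.07.

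Among subfield markers, Fibcd1, a marker of CA1 pyramidal neurons, lay between 13.5 and 206.0 CPM with ketamine (median 33.0) and between 9.45 and 96.4 CPM with saline (median 25.3). Spink8, another CA1 marker, lay between 1.43 and 15.1 CPM with ketamine and between 0.430 and 5.71 CPM with saline. Fibcd1 had an LFC of 1.12 (SE 0.53, p = 0.041) and Spink8 one of 0.85 (SE 0.41, p = 0.044). Ketamine mouse 23 had the highest value of both genes. Without its library, the LFC of Fibcd1 was 0.72 (p = 0.18) and that of Spink8 was 0.42 (p = 0.29). Wfs1, the broader CA1 marker, had an LFC of 0.39 (-0.19 to 0.96), and Prox1 of the dentate gyrus one of -0.04 (-0.47 to 0.40). Log2 values of Fibcd1 and Spink8 had a Pearson r of 0.798 across the ketamine mice (permutation p = 0.0030, adjusted 0.012; rho 0.855, p = 0.0029, adjusted 0.012), and r was 0.848 without the 2 mice farthest from the median of Fibcd1. In the saline mice r was 0.395 (permutation p = 0.26, adjusted 0.26; rho 0.358, p = 0.31, adjusted 0.31), and 0.678 without such 2 mice. Fibcd1 and Spink8 are the 2 subfield markers of an unadjusted p under 0.05, and the adjustment over 4 relations does not cover that choice. Lypd1, a marker of ventral neurons, had medians of 113.7 and 145.7 CPM (LFC -0.24, SE 0.11, p = 0.027), and without mouse 23 it had an LFC of -0.19 (p = 0.070). Of the 14 subfield and 8 ventral markers, 3 had an unadjusted p under 0.05, against 2.88% of all genes and 1.24% of those with at least 1 CPM, as all 22 had. The LFC was above 0 in 8 of 14 subfield markers (-0.37 to 1.12) and in 4 of 8 ventral ones (-0.27 to 0.40). The subfield count of 2 was 0 with limma-voom and in 7 of the 20 fits without 1 library (ketamine mouse 23, 25 or 40, saline mouse 24, 28, 29 or 38), and the ventral count of 1 was 0 without ketamine mouse 23 or saline mouse 33 or 35. These counts rose to 3 and 2 with the 20 libraries alone and without ketamine mouse 32. The ventral count was also 2 with the run as a covariate. The position of the punch was not tested.

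The mitochondrially encoded genes had an LFC above 0 in 13 of 13 cases, from 0.06 (mt-Nd1) to 0.33 (mt-Nd4l), with a median of 0.14 and 0 genes at an unadjusted p under 0.05. This count was 2 with the 20 libraries alone (2.981% of all genes had such a p), 5 with the run added to these 20 as a covariate (edgeR, 3.298% of all genes) and 1 without saline mouse 35. Their summed level ran from 28380 to 36500 CPM with ketamine and from 25770 to 34960 CPM with saline. Cytosolic ribosomal protein genes had a median LFC of 0.04 with 65 of 75 above 0. Of these, Rpl30 had an unadjusted p under 0.05 (LFC 0.37, SE 0.15, p = 0.020). This is 1 of 75, against 2.88% of all genes and 1.24% of those with at least 1 CPM, as all 75 had. The count was 4 in the 20 libraries with the run as a covariate (3.298% of all genes). It was 4 without saline mouse 24 (2.703%) and 3 without ketamine mouse 26 (3.239%). Hba-a2, a hemoglobin gene, was at most 0.194 CPM in every mouse, too low to read its LFC of -1.45 (p = 0.019).

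Some genes had levels far apart in different mice, in both treatments. Cwc22, a splicing factor, lay between 19.1 and 22.9 CPM in 10 mice and between 359.7 and 789.4 CPM in the other 10. The low mice were 4 of 10 with ketamine and 6 of 10 with saline, and its LFC of 0.71 had an SE of 0.83. AC165951.1, an antisense RNA on chromosome 17, was under 1 CPM in 8 of 10 ketamine and 7 of 10 saline mice and between 25.8 and 39.2 CPM in the rest. A830036E02Rik, also annotated as antisense, was under 1 CPM in 14 of 20 mice and reached 28.0 CPM. Without a stated strand setting, reads of either RNA cannot be told apart from those of a gene on the other strand. The transcript 1500004A13Rik, the exception, was under 1 CPM in 2 ketamine mice, at 0.321 and 0.458 CPM, and at 29.3 CPM or more in all others. Pecam1, the adhesion molecule of endothelial cells, had 0 counts in ketamine mouse 25 and saline mouse 29 and between 5.17 and 14.1 CPM in the other 18. Cldn5, the tight junction gene of the same cells, was at 15.57 CPM or more in all 20.

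Levels of these genes were compared with those in the mPFC of the same mice. With limits set after the values were seen (100 CPM for Cwc22, 1 CPM otherwise), all 10 mice low in Cwc22 in the vHipp were low in the mPFC, and all 10 high ones were high there. Both mice under the limit in Pecam1 were under it in the mPFC, and the other 18 were above it in both regions. For AC165951.1, 14 mice were under the limit in both regions and 5 above it in both, which leaves 1 that differed. For A830036E02Rik 12 were under in both and 6 above in both, which leaves 2 that differed. For 1500004A13Rik, 1 of the 2 low mice was low in the mPFC. Shox2 was different. This homeobox gene, known from thalamic neurons, was under 1 CPM in 12 of 20 vHipp libraries and reached 7.48 CPM, but it was under 1 CPM in all 20 mPFC libraries.

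Runs of mouse numbers held more of the variation than treatment did. Each run of 4 consecutive numbers, from 21 to 24 up to 37 to 40, held 2 ketamine and 2 saline mice, so that runs and treatment are balanced. The labels do not say whether a run is a social box, a cage or a day of preparation, and these cannot be told apart. Between the 5 runs, with treatment in the model, 479 of 26806 genes (1.79%) had an adjusted p under 0.05 by edgeR's quasi-likelihood test, and 4882 (18.2%) had an unadjusted one. Over genes of at least 1 CPM, runs held 30.9% of the sum of squares of log2 CPM, with 21.1% of the degrees of freedom, and treatment held 4.21% with 5.26%. On the first principal component, which carried 21.1% of the variance, 50.8% of the spread lay between runs and 0.126% between treatments. On the second (11.8%) these shares were 45.7% and 0.185%.

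The runs differed in the means of named genes, and those described here are among the genes of smallest p between runs. Single mice of different runs overlapped in some of them. Naa50 was at 77.19 CPM in mouse 31 of a high run and at 77.97 CPM in mouse 35 of a lower one. Vamp7, a SNARE of late endosomes, had run means of 20.2, 31.9, 28.7, 17.9 and 19.4 CPM in the order of the numbers (adjusted p = 0.0039). The runs of mice 25 to 28 and 29 to 32 were high. Sgpp1, a sphingosine-1-phosphate phosphatase, had 32.53, 39.7, 37.2, 29.9 and 27.9 CPM (adjusted p = 0.0039), and Naa50, an acetyltransferase, had 68.0, 93.1, 84.4, 73.6 and 70.4 CPM (adjusted p = 0.0095). The nuclear matrix protein gene Matr3 and the trafficking gene Tmed7 were highest in the same run as Vamp7, with means of 221.4 and 102.5 CPM. Spata13, a guanine nucleotide exchange factor, was different and had 20.8, 42.9, 44.5, 56.7 and 52.0 CPM (adjusted p = 0.0095). Treatment LFCs of these genes were close to 0, with -0.07 for Vamp7, -0.08 for Sgpp1 and -0.01 for Spata13.

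**Figure D5:**
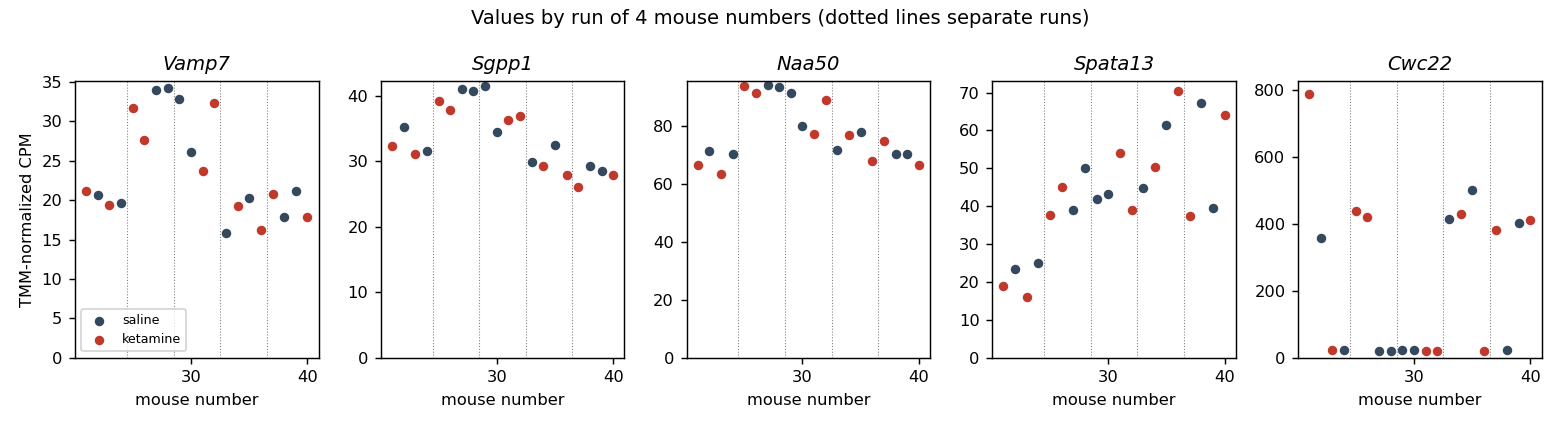
TMM-normalized CPM (vertical axis, from 0) against mouse number (horizontal axis) for 5 genes in the 20 unstressed vHipp mice, saline in dark gray and ketamine in red, with dotted lines between runs of 4 numbers. Vamp7, Sgpp1 and Naa50 have their highest means in the runs of mice 25 to 28 and 29 to 32, Spata13 is low in the first, and Cwc22 is split between mice.

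Several of the described lists varied with the runs. Of the 75 ribosomal protein genes, 56 had an unadjusted p under 0.05 between runs and 8 an adjusted one, against 18.2% and 1.79% of all genes. The unadjusted share was higher where fewer low genes were tested, at 25.3% of 17211 genes with filterByExpr. Over the 431 genes of all lists, these 75 included, it was 36.7%. Rpl36 had run means of 56.1, 40.6, 41.6, 43.4 and 52.3 CPM (adjusted p = 0.012), with the first and last run high. Of the 12 GABA-A subunits 7 had an unadjusted p under 0.05. Prox1 was at 114.6 CPM in the first run and at 186.8 to 250.5 CPM in the other 4 (adjusted p = 0.043). The serotonin receptor Htr2a was at 26.1 CPM in the run of mice 29 to 32 and at 10.7 to 13.7 CPM elsewhere (adjusted p = 0.010). Myelin and microglia markers held 0 of 10 and 0 of 11 genes at an unadjusted p under 0.05 between runs. In the 20 unstressed libraries with the run as a covariate, ketamine against saline still had 0 genes at an adjusted p under 0.05 (smallest adjusted p = 0.85), with 884 at an unadjusted one. The share of genes of 10 CPM or more with an unadjusted p under 0.05 was 2.25% in that fit, and 1.31% in the same 20 libraries without the run.

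The ketamine difference was set against that of the 20 defeated vHipp libraries, which share no animal with the unstressed ones. The difference between both ketamine effects had 0 of 28991 genes at an adjusted p under 0.05 by edgeR's quasi-likelihood test and 823 (2.84%) at an unadjusted one, and DESeq2 gave 0 and 523. Among genes of at least 1 CPM the smallest p belonged to 2610316D01Rik, with an LFC of -0.64 in unstressed and 0.11 in defeated mice (difference 0.75, p = 0.00045, adjusted p = 1.00). Sema5b came next with 0.45 and -0.30 (difference -0.75, p = 0.00099) and then Egfl6 with 0.50 and -0.35 (difference -0.86, p = 0.0015). All 3 are also among the genes of smallest p in the unstressed mice, and the difference holds the same values. Ptgds had LFCs of -1.004 in unstressed and -0.71 in defeated mice (p = 0.024 in the latter, unadjusted), and the difference of 0.29 had p = 0.49. Meningeal markers had list medians of -0.41 and -0.18, and subfield markers 0.10 and -0.06. Choroid plexus markers had medians of -0.07 and -2.18, and 4 of 10 had an unadjusted p under 0.05 for the difference, against 2.84% of all genes, with 0 past the adjusted threshold. Ependymal markers had medians of -0.19 and -0.48. In the unstressed vHipp, 2 of 10 choroid plexus and 3 of 7 ependymal markers reached a mean of 1 CPM. Both lists thus consist mostly of genes with few counts. The part of these tissues in the Ptgds value of the defeated mice was not tested. Fibcd1 was at 0.14 and Spink8 at 0.18 in defeated mice.

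In the mPFC of the same 20 unstressed mice, the ketamine effect was compared in 1 fit over both regions. The difference between regions had 0 of 29382 genes at an adjusted p under 0.05 by edgeR's quasi-likelihood test and 910 (3.1%) at an unadjusted one. With the mouse as a block the count of adjusted calls was again 0, and the share at an unadjusted p was 3.601%. Among genes of at least 1 CPM over these libraries, those of smallest p were CT573017.1 (difference -1.13, p = 0.00012) and 2610316D01Rik (-0.68, p = 0.00013), each with an adjusted p of 1.00. CT573017.1 had a mean of 0.457 CPM in the vHipp, against 1.16 CPM over both regions. Its LFCs were -0.78 in the vHipp and 0.345 in the mPFC. 2610316D01Rik also had the smallest p in the vHipp alone, and the difference holds the same values. Ptgds had an LFC of -0.996 in the mPFC too (p = 0.0011, unadjusted), so that its difference between regions was -0.00 (p = 0.99), and Gjb2 had -0.66 in the vHipp and -0.56 in the mPFC. The regions come from the same animals, so this is not a second set of mice. Meningeal markers had list medians of -0.41 in the vHipp and -0.44 in the mPFC, and oligodendrocyte and myelin markers of -0.17 and -0.16. Choroid plexus markers had medians of -0.07 and 0.19 and ependymal markers of -0.19 and 0.41, though 2 of 10 and 3 of 7 of them reached 1 CPM in the vHipp. The part of these cells in the Ptgds values was not tested.

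Mitochondrially encoded genes were the list with the largest share of small p in that comparison of regions. Of 13, 9 had an unadjusted p under 0.05, against 3.1% of all genes, and 0 an adjusted one. The median LFC was 0.14 in the vHipp and -0.15 in the mPFC. Astrocyte markers had medians of 0.12 and -0.12 (2 of 10 at an unadjusted p under 0.05, 4 with the block), and microglia markers 0.11 and -0.12 (2 of 11, 5 with the block). The count of mitochondrially encoded genes was 10 with the mouse as a block, 9 with RLE scaling and 9 with DESeq2. Of all genes, 3.601% had such a p with the block, 3.06% with RLE scaling and 1.92% with DESeq2. mt-Co1, the first subunit of cytochrome c oxidase, had LFCs of 0.14 in the vHipp and -0.10 in the mPFC (difference 0.25, p = 0.0077, and p = 0.00029 with the block, adjusted p = 1.00 in both). These 13 genes lie on one molecule and are transcribed together, so they are not independent. Ribosomal protein genes had 9 of 75 at an unadjusted p under 0.05 without the block, 4 with RLE scaling and 51 with the block. The same shares of all genes apply to these counts. Their medians were 0.04 in the vHipp and -0.09 in the mPFC. As 56 of the 75 also varied with the runs (unadjusted p under 0.05), they were not taken as independent results. The part of glial cells in these values was not tested.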

How the data were processed

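Bulk RNA sequencing counts of 20 vHipp libraries of unstressed mice were analyzed, 10 with ketamine and 10 with saline, with groups and mouse numbers taken from the sample labels. The authors made stranded mRNA libraries, removed samples with an RNA integrity number under 8, and sequenced both ends of the fragments. The deposited values are raw counts per gene on GRCm38, whole numbers without normalization, and their gene length column was used for CPM per kb. The submitters' processing notes name bcl2fastq 2.20.0.422 and CASAVA, and the aligner and counting program are not given in the sources used here. GENCODE M21 gave a symbol for 55230 of the 55471 identifiers.

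Genes with more than 10 counts in total and counts in more than 3 libraries were tested with edgeR's quasi-likelihood test (edgeR 4.0.16, R 4.3.3), TMM factors and Benjamini-Hochberg adjustment (threshold 0.05, two-sided), with all 40 vHipp libraries in the fit. SE and 95% intervals were taken from the F statistic. The stress comparison used the same fit, the region comparison the 40 libraries of unstressed mice, and the run comparison the 20 libraries with treatment in the model. The methods of the study had the social box as a covariate, which the labels do not give, so the run of 4 mouse numbers was an alternative only. Other alternatives were DESeq2 1.42.0, limma-voom (limma 3.58.1) with the run as a random effect, RLE factors, edgeR's filterByExpr, no filter, the 20 libraries alone, and each library left out in turn. Models were tested on simulated data. Permutation tests used 100000 resamples, which were drawn with numpy 2.4.6 for the library totals.

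The members and all gene lists were chosen with earlier results of these data known. Genes named are the members of 33 lists, the 12 genes with the smallest p in each direction and at least 1 CPM on average, genes past the adjusted threshold in any fit (those of smallest p for runs), the 5 with the largest SD of log2 CPM, and the 3 of smallest p in each comparison of effects, with at least 1 CPM over the libraries of that fit. Genes without a symbol were passed over. Some genes that this rule names are not reported here. Nothing says that a library is more than 1 punch of 1 mouse, and the mice are the replicates. The closest pair of libraries within a group differed by 9.26 times (saline) and 7.71 times (ketamine) the variation expected from counting, and 0 pairs were identical.

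Mouse numbers pair the regions, because a number names one animal in the labels. Deviations from the group means correlated with a median of 0.291 (0.153 to 0.523) between both regions of an animal (20 animals) and with -0.014 between different mice, over 15701 genes, and 17 of 20 mice correlated best with their own number.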

Additional observations from a re-analysis of the deposited data

Results flagged for a closer look

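A single mouse stood apart from the other 9 of its group in 10 of 130 groups of values examined, where the limit used (a gap over 0.466 of the range) is passed by about 1 in 20 groups by chance, or 6.5. Counts per library were highest in ketamine mouse 21, at 41767119, with the next ketamine library at 29245728.

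Among named genes, Sema5b was at 29.4 CPM in ketamine mouse 34 (next 22.6), Gm40466 at 2.49 CPM in ketamine mouse 36 (next 1.42), Gm49600 at 1.295 CPM in ketamine mouse 32 (next 0.979), and Ddx4 at 2.71 CPM in saline mouse 29 (next 1.53). Without mouse 34 the LFC of Sema5b was 0.37 (p = 0.017, unadjusted).

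Of the markers, Spink8 was at 15.1 CPM in ketamine mouse 23 (next 6.42) and Fibcd1 at 96.4 CPM in saline mouse 30 (next 43.7). The summed interneuron markers were at 1789 CPM in ketamine mouse 32 (next 1473), the summed thalamic markers at 153.9 CPM in ketamine mouse 31, and the summed ribosomal protein genes at 8406 CPM in saline mouse 24 (next 7073).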

How the results depend on the processing

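Ketamine against saline had 0 genes at an adjusted p under 0.05 as reported, in the 8 other settings and in the 20 fits without 1 library (0 to 0). Its 836 genes at an unadjusted p under 0.05 became 1411 without a filter (38108 genes tested) and 298 with filterByExpr (18024 tested, 99 higher and 199 lower), and lay between 767 and 937 with each library left out. The difference between stress groups gave 823, with 1338 without a filter, 262 with filterByExpr and 523 with DESeq2. The difference between regions gave 910, with 309 under filterByExpr and 564 with DESeq2. It had 0 adjusted calls with and without the mouse as a replicate block, so that the pairing changed no call. The run comparison had 479 adjusted calls, 822 with filterByExpr and 2550 with DESeq2's likelihood ratio test; fewer genes are tested under filterByExpr, and otherwise the cause was not tested. Ketamine and saline mice share no replicate number, so no pairing by mouse was possible there. The run of 4 numbers gave 0 adjusted calls as a covariate in the 20 libraries (884 unadjusted, against 799 in these 20 without it) and as a random effect (923). No named gene of an unadjusted p under 0.05 changed sign, but list medians near 0 did without 1 library, such as those of ventral (-0.02 to 0.12) and erythroid markers (-0.13 to 0.07). Fibcd1 and Spink8 kept an unadjusted p under 0.05 in 9 of 20 fits without 1 library each and in 5 and 6 of the 8 other settings, and the LFC of Spink8 ran from 0.42 to 1.09 over the fits without 1 library. Depth limits genes under 1 CPM. Social rank, social box and punch position were not used here.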
